A study of Mus musculus with 4 samples.

Results

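Translation initiation, elongation and release factors were followed in G1ER cells. This mouse erythroid line has no GATA1 of its own and was given a form fused to the estrogen receptor, so that beta-estradiol starts red cell maturation. The members are the rows of the expression table whose symbol begins with Eif1 to Eif6, Eef1 or Eef2, together with Etf1 and Gspt1. Eif2ak1, which encodes the heme-regulated eIF2 kinase, was left out by the rule, and no symbol was lost for a pseudogene ending or a comma. This gave 64 genes of 23936, and 59 of them reached an average of 1 FPKM across the libraries and are called measured (FPKM counts fragments per kilobase of a transcript, scaled by sequencing depth). The 4 groups were Chd7-/- cells at 24 h and at 0 h of estradiol, here called the knockout, and wild-type cells at 24 h and at 0 h. Each group was 1 library of total RNA depleted of ribosomal RNA, so there was no replicate, no test was possible, and every statement is about these libraries. All cells were grown with erythropoietin and stem cell factor, the treatment label reads estradiol for the 0 h libraries too, and the labels do not say whether the knockout line is 1 clone.

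Protein synthesis begins when eIF2 carries the initiator tRNA to the small ribosomal subunit, eIF3, eIF1 and eIF1A hold that subunit open for scanning, and the eIF4 proteins bring in the capped mRNA. eIF5 and eIF5B end initiation, eEF1A and eEF2 drive each elongation step, and the release factors free the finished chain. In erythroid cells this machinery is tied to globin synthesis, because the heme-regulated kinase phosphorylates eIF2 and slows initiation when heme is short. Cells that mature towards red cells are known to shut down ribosome production while globin mRNA fills the remaining ribosomes.

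The erythroid label was checked against marker genes. All 8 erythroid markers were measured, with summed levels of 16945 and 1028 FPKM in the knockout at 24 h and 0 h and 10156 and 812 FPKM in wild type. The globin gene Hbb-b1 was the highest of them in every library. At 0 h it stood at 528 FPKM in the knockout and 326 FPKM in wild type. Over the 8 markers the median log2 ratio of knockout to wild type was 0.04 at 0 h and 0.72 at 24 h. Of 10 mast cell markers 4 were measured, with sums of 5.48 and 65.7 FPKM in the knockout at 24 h and 0 h and 7.40 and 37.5 FPKM in wild type, while Mcpt8 and Prss34 were at 0 in all libraries. Neutrophil and monocyte markers summed to between 5.74 and 11.4 FPKM. Of 9 with a row 6 were at 0 throughout, Mpo and Elane among them, and 2 were measured. Cebpe stood at 9.42 and 6.55 FPKM in the knockout at 24 h and 0 h and 7.02 and 2.93 FPKM in wild type. Lyz2 stood at 1.48 and 4.78 FPKM in the knockout and 1.08 and 2.81 FPKM in wild type. Megakaryocyte markers, 2 of 8 measured (Pf4 and Gp9), summed to between 4.60 and 6.74 FPKM. The erythroid and mast cell sums differ with time and with genotype, as do the ratios below, and their part in those ratios was not tested. The Chd7 row was at 0 in all 4 libraries, so it checks no label. The low FPKM values fell on steps that correspond to 14.95 M to 17.7 M fragments per library (M, mega), which may be rescaled totals. Counting error at these depths gave a typical 95% margin of 0.06 to 0.07 on the log2 ratio of a member. It covers counting alone and not the spread between cultures.

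The mean level of the measured members ran from 2.61 FPKM for the kinase gene Eif2ak3 to 8636 FPKM for Eef1a1. Which library is high or low is given on the deposited FPKM scale. On it the knockout at 24 h was the lowest library for 41 of the 59 members and the knockout at 0 h for 6. With each library scaled to an equal sum (TPM) the knockout at 0 h was the lowest for all 59. The same counts over all genes were not computed, but medians of all genes ran the same way. For the knockout at 24 h their log2 ratio was -0.12 against 0 h and -0.09 against wild type on the deposited scale. For the knockout at 0 h it was -0.78 against wild type with TPM scaling. Eef1a1, which delivers aminoacyl-tRNA to the ribosome, was the most abundant at 7714 and 8194 FPKM in the knockout at 24 h and 0 h, against 9151 and 9484 FPKM in wild type. Eef2, which moves the ribosome along the mRNA, followed at 1459 and 1450.4 FPKM in the knockout and 1632 and 1652 FPKM in wild type. Both were lower in each knockout library than in either wild-type library. The exchange factor subunits of eEF1A had lower levels. Eef1b2 stood at 504 and 555 FPKM in the knockout and 586 and 580.3 FPKM in wild type. Eef1g stood at 431 and 588 FPKM in the knockout and 550.1 and 611 FPKM in wild type. Eef1d was the lowest of these subunits, at 158 and 199 FPKM in the knockout and 223 and 233 FPKM in wild type. The second eEF1A gene, Eef1a2, known from muscle and nerve, was listed at 0 in all 4 libraries.

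Among the cap-binding group the helicase Eif4a1 was the most abundant, at 506 and 593 FPKM in the knockout at 24 h and 0 h and 610.5 and 625 FPKM in wild type. Its close relative Eif4a2 stood at 66.5 and 79.0 FPKM in the knockout and 73.3 and 102 FPKM in wild type. The scaffold Eif4g1 was at 103 and 147 FPKM in the knockout and 111 and 147 FPKM in wild type. All 3 were lowest in the knockout at 24 h. Eif4g2, a scaffold that does not bind eIF4E, was at 59.2 and 76.4 FPKM in the knockout and 59.5 and 80.2 FPKM in wild type. Eif4g3 was far below at 5.91 and 7.57 FPKM in the knockout and 4.75 and 5.57 FPKM in wild type, so that the knockout was the higher genotype at each time. The cap-binding protein itself, Eif4e, stood at 49.6 and 60.1 FPKM in the knockout and 56.0 and 62.6 FPKM in wild type. Eif4e2, a relative that binds the cap and represses translation, was close to it at 40.4 and 52.8 FPKM in the knockout and 50.2 and 54.5 FPKM in wild type. Eif4e1b and Eif4e3 were listed at or near 0. Eif4ebp1, the inhibitor that captures eIF4E when mTOR signalling is low, was well above its target at 185 and 214 FPKM in the knockout and 235 and 241 FPKM in wild type. Its relatives were low, with Eif4ebp2 at 4.68 and 6.56 FPKM in the knockout and 4.29 and 5.75 FPKM in wild type. Eif4ebp3 was at 4.09 and 4.12 FPKM in the knockout and 2.55 and 4.04 FPKM in wild type.

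The eIF3 complex, which joins the ribosome to the mRNA, had 14 genes in the table, of which 13 were measured. Leaving out the loosely bound eIF3j, the 12 subunits had a median of 181 and 195.9 FPKM in the knockout at 24 h and 0 h, against 223.5 and 229.9 FPKM in wild type. Eif3e was the highest in every library, at 228 and 342 FPKM in the knockout and 272 and 397 FPKM in wild type. The lowest was Eif3f in the knockout libraries, with 89.0 and 92.2 FPKM, and Eif3b in the wild-type libraries, with 78.5 and 82.2 FPKM. The span from the lowest to the highest subunit was 2.56-fold and 3.71-fold in the knockout at 24 h and 0 h, and 3.47-fold and 4.83-fold in wild type.

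Of the other initiation genes, the eIF2 subunits were close to each other. Eif2s2 (beta subunit) stood at 118 and 124 FPKM in the knockout at 24 h and 0 h and 123 and 134 FPKM in wild type. Eif2s3x, the X-linked gene of the gamma subunit, was at 81.8 and 114 FPKM in the knockout and 101 and 129.8 FPKM in wild type, and its Y-linked copy Eif2s3y was listed at 0. Subunits of eIF2B, the factor that recharges eIF2 with GTP, were lower, with means from 23.4 FPKM for Eif2b3 to 65.0 FPKM for Eif2b5. Eif2b5, the catalytic subunit, stood at 52.7 and 67.7 FPKM in the knockout and 65.7 and 73.7 FPKM in wild type. The eIF2 kinases had the lowest levels of any role. Eif2ak4 (GCN2, which senses uncharged tRNA) had the highest mean of them, at 6.62 and 8.89 FPKM in the knockout and 8.56 and 10.0 FPKM in wild type. In the knockout at 0 h Eif2ak2 was above it, at 9.13 FPKM. Eif5a, which helps ribosomes through hard stretches and carries the hypusine residue, stood at 314 and 442 FPKM in the knockout and 419 and 476 FPKM in wild type. Eif5a2 was at 5.53 and 7.12 FPKM in the knockout and 4.62 and 6.32 FPKM in wild type. Eif2d, which can place a tRNA without eIF2, was at 42.5 and 56.2 FPKM in the knockout and 52.8 and 54.4 FPKM in wild type. Eif4a3, the helicase of the exon junction complex, was at 110.5 and 153 FPKM in the knockout and 144 and 159 FPKM in wild type. Etf1, the release factor eRF1, stood at 69.5 and 95.7 FPKM in the knockout and 78.2 and 107 FPKM in wild type.

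**Figure D1:**
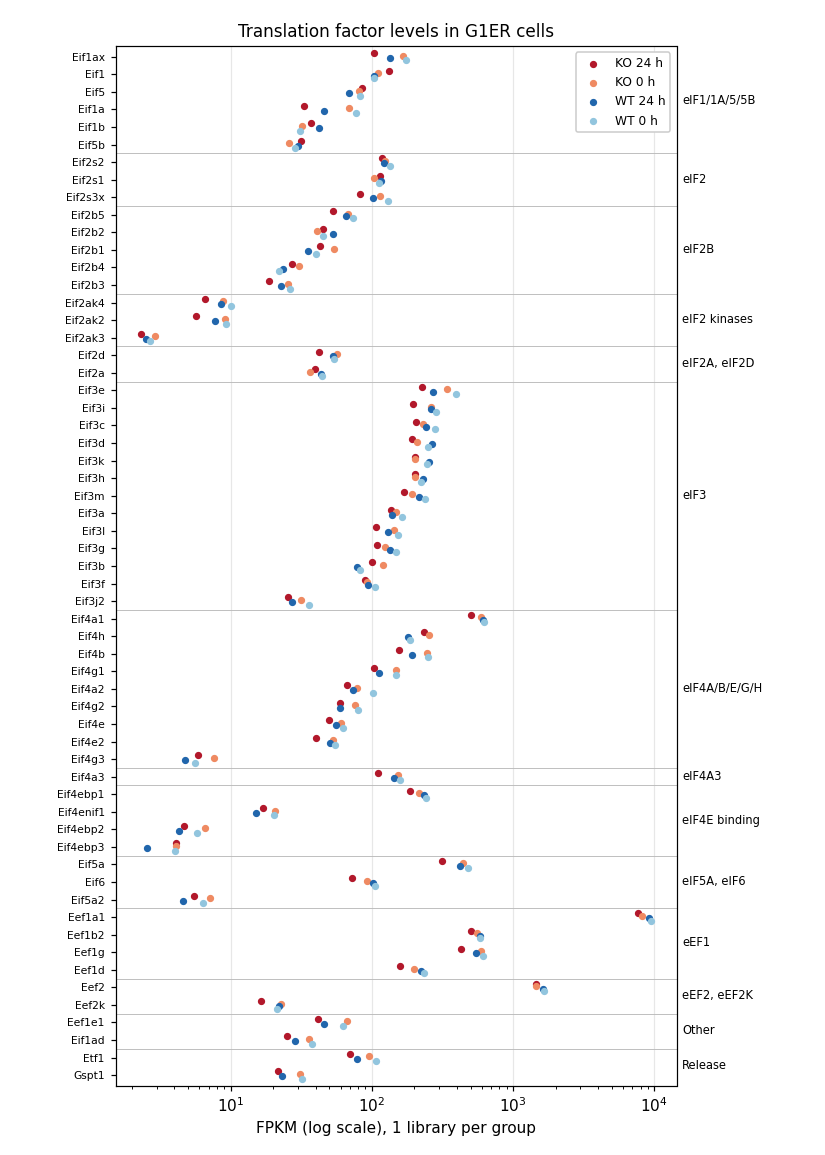
Level of the 59 measured translation factor genes in the 4 libraries (FPKM, log axis), grouped by role, with 1 point per library and no error bars because each group is 1 library. Eef1a1 lies between 7714 and 9484 FPKM and the eIF2 kinases at or below about 10.0 FPKM, and the 4 points of most genes lie close together.

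Several of these genes have near-identical copies, and the way shared reads were assigned is not given in the sources used here. Of the 50-base words of each member's longest coding transcript (GENCODE M21, GRCm38), the share that also occurs in transcripts of another gene had a median of 0.3%, and it was above 50% for 5 members. These were Eif3j2 (91.8%), Eif4ebp3 (65.5%), Eif4a1 (65.3%), Eef1g (64.3%) and Eef1a1 (59.2%), and their levels are uncertain in that respect. Of the words of Eif3j2, 90.8% occur in Eif3j1, and 39.4% of those of Eif3j1 occur in Eif3j2. Eif3j1 was listed at 0.090 and 0.091 FPKM in the knockout at 24 h and 0 h and 0.075 and 0.089 FPKM in wild type. Eif3j2 stood at 25.3 and 31.5 FPKM in the knockout and 27.2 and 35.7 FPKM in wild type. As a sum the pair stood at 25.4 and 31.6 FPKM in the knockout and 27.3 and 35.8 FPKM in wild type.

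After 24 h of estradiol the knockout had lower levels of most translation factors than at 0 h, by a modest amount. The log2 ratio of FPKM + 1 (used for all ratios here, and smaller than the true change for low genes) had a median of -0.30 over the 59 measured members, against -0.12 over all 8964 measured genes. A total of 43 members lay below the median of all genes, where 50% of all genes do by construction, and 50 lay below 0, against 62.5% of all genes. Scaling each library to an equal sum (TPM) moved the median of all genes to 0.83 and that of the members to 0.75, so that none of the members stayed below 0 and 34 lay below the median of all genes. That sum includes the snoRNA Snord49a, which held 33.9% of the knockout at 0 h. Small and predicted loci together held 69.3% of the sum there, the largest share of any library. Their share was 43.2% in wild type at 0 h, 33.4% in the knockout at 24 h, and lowest in wild type at 24 h. The sum itself was 1604981 FPKM in the knockout at 0 h, against 923195 FPKM in wild type at 0 h. TPM ratios that use the knockout at 0 h depend on that sum. Large changes were few. None of the 59 was 2-fold higher (3.38% of all genes) and only Eif1a was 2-fold lower (3.64% of all genes). None was 1.5-fold higher (8.4% of all genes) and 5 were 1.5-fold lower (13.9% of all genes), or 1 with median-centred or upper-quartile scaled libraries. With TPM scaling 47 were 1.5-fold higher and 0 lower, but the median of all genes, at 0.83, was then itself past 1.5-fold (log2 ratio 0.58). The share of all genes past it was not computed on that scale. In bulk RNA, fewer cells with a transcript and less of it per cell cannot be told apart.

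Those 5 genes have several roles. Eif1a, an eIF1A gene that keeps the small subunit open during scanning, stood at 33.0 FPKM in the knockout at 24 h against 69.2 FPKM at 0 h, with a log2 ratio of -1.05 ± 0.09 (counting margin). Its X-linked relative Eif1ax was at 103 FPKM at 24 h against 165 FPKM at 0 h, with a log2 ratio of -0.67 ± 0.04. Eif4b, a cofactor of the eIF4A helicase, was at 155 FPKM at 24 h against 245 FPKM at 0 h, a log2 ratio of -0.66 ± 0.04. Eif1ax and Eif4b thus had ratios of a like size, and Eif1a a lower one. Eef1e1, a small protein of the multi-tRNA synthetase complex, stood at 41.7 FPKM at 24 h against 66.7 FPKM at 0 h (log2 ratio -0.66 ± 0.09). Eif2ak2, the double-stranded RNA kinase PKR, stood at 5.71 FPKM at 24 h against 9.13 FPKM at 0 h (log2 ratio -0.59 ± 0.16). Relative to the median of all genes the 5 ratios ran from -0.92 for Eif1a to -0.47 for Eif2ak2, and with TPM scaling from -0.81 for Eif1a to -0.40 for Eif4b, whose own ratio was then 0.43.

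By role, the release factors had like ratios in the knockout, -0.46 for Etf1 and -0.50 for Gspt1, its partner eRF3. The cap-binding group had 9 of 9 members below 0, with a median of -0.31 and a range from -0.66 to -0.11. In eIF3, 12 of 13 were below 0 with a median of -0.17, and Eif3e (-0.58), Eif3i (-0.44) and Eif3l (-0.42) were lowest. The eEF1 group had 4 of 4 below 0, from -0.45 for Eef1g to -0.09 for Eef1a1, and Eef2 was at 0.01 ± 0.02. Its kinase Eef2k, which slows elongation, was at -0.45 ± 0.09. These counts stand beside 62.5% of all genes below 0. They hold for the deposited scale and turn round with TPM scaling, where no member was below 0. Of the 9 members above 0, 7 were so by more than their counting margin. They were Eif5b (0.27 ± 0.07), Eif1 (0.26 ± 0.08), Eif1b (0.21 ± 0.17), Eif2s1 (0.14 ± 0.05), Eif2b2 (0.13 ± 0.12), Eif2a (0.12 ± 0.11) and Eif5 (0.07 ± 0.05). Start codon choice was thus the most divided group, with eIF1 and eIF5 genes above 0 and both eIF1A genes below.

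In wild-type cells the same comparison gave smaller ratios. The median over the 59 members was -0.16 at 24 h against 0 h, beside -0.11 over all genes. Below the median of all genes lay 37 members (50% of all genes), and 48 were below 0 (64.0% of all genes), or 20 with TPM scaling, which put the median of all genes at 0.11. None was 2-fold higher or lower (1.86% and 1.06% of all genes). None was 1.5-fold higher (4.6% of all genes), and 1 was 1.5-fold lower (6.64% of all genes), or 1 higher and 0 lower with TPM scaling. The lower gene was again Eif1a, at 45.9 FPKM in wild type at 24 h against 76.8 FPKM at 0 h, with a log2 ratio of -0.73 ± 0.08, or -0.49 with TPM scaling. The other 4 genes named for the knockout had wild-type ratios between -0.42 and -0.25. Eif1ax stood at 135 FPKM in wild type at 24 h against 175 FPKM at 0 h, and Eif4b at 191 FPKM against 251 FPKM. Eef1e1 stood at 46.1 FPKM in wild type at 24 h against 62.2 FPKM at 0 h, and Eif2ak2 at 7.70 FPKM against 9.32 FPKM. All 4 were thus lower at 24 h in wild type as well, on the deposited scale. After Eif1a the lowest ratios were those of Eif3e (-0.54 ± 0.04), Eif4ebp3 (-0.51 ± 0.49), Eif4a2 (-0.47 ± 0.06), Etf1 (-0.45 ± 0.05) and Gspt1 (-0.44 ± 0.10). The release factors therefore had nearly the ratio they had in the knockout on the deposited scale. With TPM scaling both were higher at 24 h in the knockout and lower in wild type. Etf1 then stood at 92.2 and 59.6 TPM in the knockout at 24 h and 0 h, and at 100 and 116 TPM in wild type. For Gspt1 the values were 28.8 and 19.3 TPM in the knockout and 29.8 and 34.6 TPM in wild type. Among elongation factors, on the deposited scale, Eef1b2 was at 0.01, Eef2 at -0.02, Eef1a1 at -0.05, Eef1d at -0.07 and Eef1g at -0.15 ± 0.03. Eif1b was the highest at 0.42 ± 0.16, with 42.1 FPKM in wild type at 24 h against 31.2 FPKM at 0 h, and 37.3 FPKM in the knockout at 24 h against 32.0 FPKM at 0 h.

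**Figure D2:**
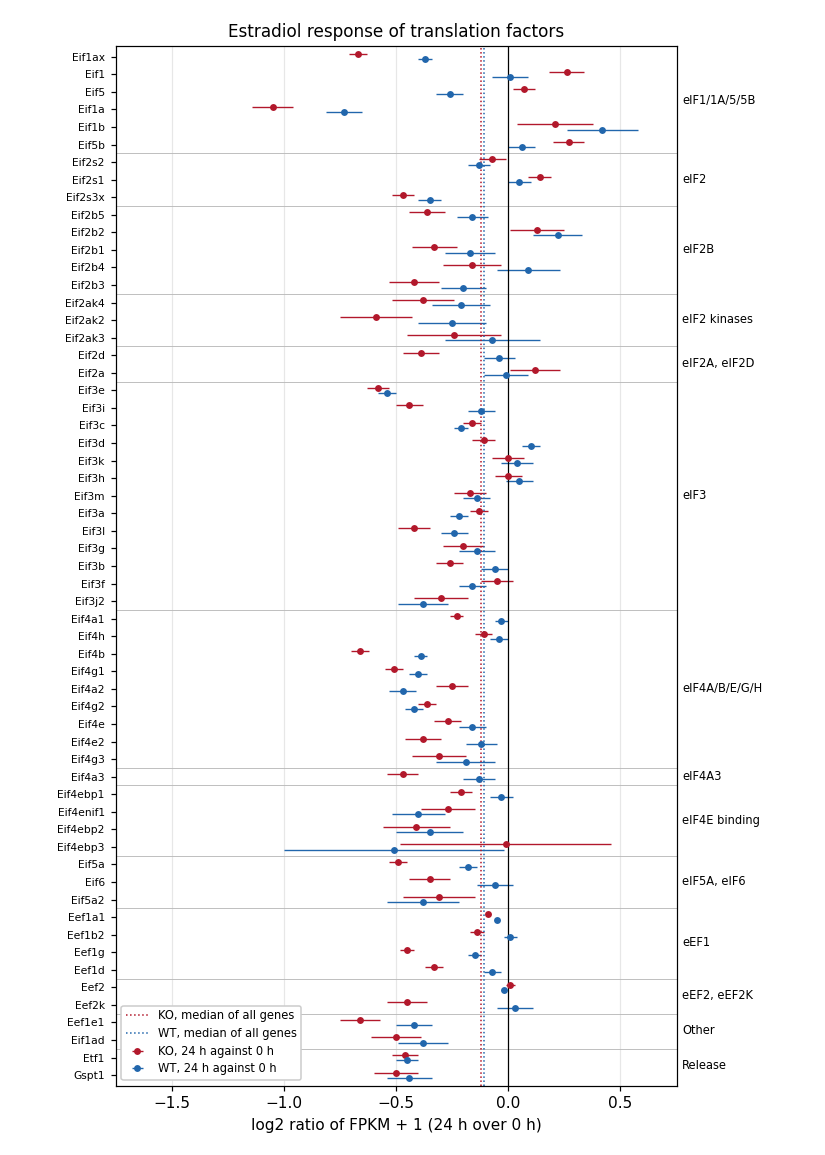
Log2 ratio of FPKM + 1, 24 h over 0 h, for each measured member in the knockout (red) and in wild type (blue), on the deposited scale, with bars for the 95% counting margin only and dotted lines at the median of all genes. The red points of 50 of 59 genes and the blue points of 48 lie below 0 (none and 20 with TPM scaling), and Eif1a is lowest in both genotypes.

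No library enters both responses, so they could be set side by side. Over the 59 members, which are genes and not samples, their Pearson correlation was 0.69 and their Spearman correlation 0.64. The same correlations over all genes were not computed, so whether these values are particular to the members is not known. On the deposited scale 45 members (76.3%) were below 0 in both genotypes, against 53.6% of all genes. With TPM scaling no member was below 0 in the knockout. The difference of the responses, knockout minus wild type, had a median of -0.12 over the members and -0.02 over all genes. It was below 0 for 43 of 59 (53.7% of all genes) and below the median of all genes for 42 (50% of all genes), while with TPM scaling none of the members was below 0 and 31 lay below a median of all genes of 0.72. No member had a difference of 1 or more in either direction (0.602% and 0.625% of all genes), nor one past 1.5-fold (2.96% and 2.8% of all genes). With TPM scaling 42 were past 1.5-fold higher, where the median of all genes, at 0.72, was past it too. The lowest was Eef2k at -0.48 ± 0.12. It stood at 16.4 and 22.7 FPKM in the knockout at 24 h and 0 h, and at 21.9 and 21.4 FPKM in wild type, so that the knockout at 24 h was the low library on this scale. Eif2d (-0.35), Eif2ak2 (-0.35), Eif4a3 (-0.33), Eif1a (-0.32), Eif3i (-0.32), Eif5a (-0.31), Eif1ax (-0.30), Eef1g (-0.29) and Eif6 (-0.29) came next. Eif6, which keeps the large subunit from joining too early, stood at 72.2 and 92.1 FPKM in the knockout and 101 and 106 FPKM in wild type.

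At the other end, Eif4ebp3 had a difference of 0.50 ± 0.67, within its counting margin. Eif5, the activator of the eIF2 GTPase, had 0.33 ± 0.08, with 84.8 and 80.9 FPKM in the knockout at 24 h and 0 h and 69.1 and 82.8 FPKM in wild type. Wild type at 24 h was the low library of the 4 on this scale. Eif1, with 0.26 ± 0.12, stood at 132 and 109.7 FPKM in the knockout and 104 and 103 FPKM in wild type, so that here the knockout at 24 h was the high one, as it was with TPM scaling. Eif4a2 (0.22 ± 0.10) and Eif5b (0.21 ± 0.09) followed. Of the members, 13 hold an annotated small RNA gene within their span, Eif4a2, Eif5, Eif4a1 and Eef2 among them, and without these 13 the median difference was -0.14 over 46 members.

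Before estradiol the knockout differed little from wild type in these genes on the deposited scale. At 0 h the median log2 ratio was -0.09 over the members and -0.07 over all genes, and 31 of 59 lay below the median of all genes (50% of all genes). Below 0 were 43 (65.3% of all genes). None was 2-fold higher or lower (0.435% and 0.647% of all genes) or 1.5-fold higher or lower (1.83% and 2.31% of all genes). With TPM scaling the median of all genes moved to -0.78 and that of the members to -0.87, with 10 members then 2-fold lower and 51 at least 1.5-fold lower. The median of all genes was thus itself past 1.5-fold lower, and the shares of all genes were not computed on that scale. At 24 h the knockout stood below wild type by more, with a median of -0.20 over the members and -0.09 over all genes. Below the median of all genes were then 41 (50% of all genes) and below 0 were 47 (61.8% of all genes), or 42 and 44 with TPM scaling. Again none reached 2-fold higher or lower (0.714% and 1.14% of all genes) or 1.5-fold higher or lower (3.51% and 5.02% of all genes), and with TPM scaling 1 was 1.5-fold higher. Lowest at 24 h were Eef1d (-0.49 ± 0.04), Eif3d (-0.48 ± 0.05), Eif6 (-0.48 ± 0.09), Eif1a (-0.46 ± 0.09), Eif3i (-0.43 ± 0.06) and Eif5a (-0.42 ± 0.04). At both times the knockout was below wild type for 41 of 59 (48.0% of all genes) and above it for 10 (20.8% of all genes). With TPM scaling it was below at both times for 44 of 59 (55.5% of all genes). At 0 h alone all 59 were then below it, beside the median of all genes of -0.78. Of the eEF1 group and Eef2, 5 of 5 were below wild type at both times.

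Of the 10 members above wild type at both times, 4 lie on chromosome 5. All 4 measured members on chromosome 5 were above wild type at both times, and they came from different complexes. Eif3b (chr5:140419305-140443358, GRCm38), a core subunit of eIF3, stood at 101 FPKM in the knockout and 78.5 FPKM in wild type at 24 h, and at 121 FPKM in the knockout and 82.2 FPKM in wild type at 0 h. Its log2 ratios were 0.35 ± 0.06 at 24 h and 0.55 ± 0.06 at 0 h. Eif4h (chr5:134619872-134639409), a cofactor of eIF4A, stood at 234 FPKM in the knockout and 182 FPKM in wild type at 24 h, and at 253 FPKM in the knockout and 187 FPKM in wild type at 0 h (log2 ratios 0.36 at 24 h and 0.44 at 0 h). The regulatory eIF2B subunit Eif2b1 (chr5:124570214-124579131) stood at 42.6 FPKM in the knockout and 35.5 FPKM in wild type at 24 h, and at 53.8 FPKM in the knockout and 40.1 FPKM in wild type at 0 h (log2 ratios 0.26 at 24 h and 0.42 at 0 h). Eif2b4 (chr5:31187558-31193139), another eIF2B subunit, stood at 27.1 FPKM in the knockout and 23.4 FPKM in wild type at 24 h, and at 30.5 FPKM in the knockout and 21.9 FPKM in wild type at 0 h (log2 ratios 0.20 at 24 h and 0.46 at 0 h). For each of the 4, both knockout libraries were above both wild-type libraries on the deposited scale, whereas with TPM scaling the knockout at 0 h was the lowest.

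Most other genes of chromosome 5 were higher in the knockout too, on the deposited scale. The 533 measured genes there, small and predicted loci left out, had a median log2 ratio of 0.34 at 24 h and 0.40 at 0 h, and 90.6% and 95.5% of them were above 0. The medians of the 19 other chromosomes, X included, lay between -0.15 and -0.07 at 24 h and between -0.12 and -0.07 at 0 h. With TPM scaling the 4 members were still 0.41 to 0.53 above the median of all genes at 0 h, but at -0.36 to -0.24 themselves. A difference that belongs to the knockout line as a whole and one that follows from the loss of CHD7 cannot be told apart with 1 line. Without chromosome 5, the 55 other members had a median of -0.23 at 24 h and -0.11 at 0 h, against -0.11 and -0.09 over 7486 other genes. Outside chromosome 5 the 6 members above wild type at both times were Eif4g3 (0.26 ± 0.12 at 24 h and 0.38 ± 0.12 at 0 h), Eif1, Eif5a2, Eif4ebp2, Eif4ebp3 and Eif4enif1. Eif1 was at 0.34 ± 0.08 at 24 h and 0.09 ± 0.09 at 0 h.

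**Figure D3:**
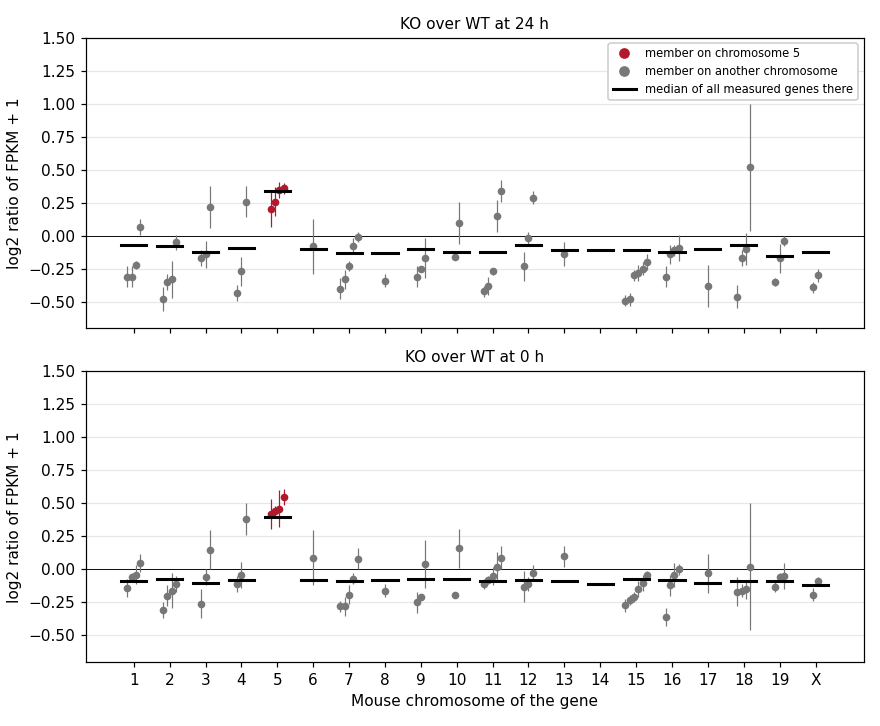
Log2 ratio of FPKM + 1, knockout over wild type, at 24 h (top) and 0 h (bottom) for each measured member by chromosome, on the deposited scale, with bars for the 95% counting margin only. The 4 red points on chromosome 5 lie from 0.20 to 0.36 at 24 h and from 0.42 to 0.55 at 0 h (below 0 at 0 h with TPM scaling), next to the black line for all measured genes of that chromosome.

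Promoter windows are shown for these 4 genes, which differ together between the genotypes, and for 4 members that do not lie on chromosome 5, namely 3 of the 5 with the lowest knockout ratio and the most abundant member. Each runs from 120 bases before the annotated start to 30 after it (RefSeq, GRCm38.p6), 5′ to 3′ on the strand of the gene. Capitals mark matches on either strand to CCGGAAG (core of ETS factor sites), CACGTG (E-box of the MYC family) or AGATAA (core of GATA sites).
Eif3b, chr5:140419185-140419334, plus strand: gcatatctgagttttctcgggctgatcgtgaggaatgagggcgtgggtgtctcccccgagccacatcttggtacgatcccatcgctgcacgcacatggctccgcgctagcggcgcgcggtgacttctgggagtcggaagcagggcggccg
Eif4h, chr5:134639380-134639529, minus strand: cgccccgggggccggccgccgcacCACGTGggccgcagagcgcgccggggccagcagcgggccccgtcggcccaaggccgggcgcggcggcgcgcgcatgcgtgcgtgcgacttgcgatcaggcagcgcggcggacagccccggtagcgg
Eif2b1, chr5:124579102-124579251, minus strand: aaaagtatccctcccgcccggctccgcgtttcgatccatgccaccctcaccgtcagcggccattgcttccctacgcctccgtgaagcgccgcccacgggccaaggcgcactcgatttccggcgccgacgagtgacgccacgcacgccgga
Eif2b4, chr5:31193110-31193259, minus strand: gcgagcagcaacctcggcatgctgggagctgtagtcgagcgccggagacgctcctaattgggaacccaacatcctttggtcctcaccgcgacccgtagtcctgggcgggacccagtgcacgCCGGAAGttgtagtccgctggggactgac
Eif1ax, chrX:159372058-159372207, plus strand: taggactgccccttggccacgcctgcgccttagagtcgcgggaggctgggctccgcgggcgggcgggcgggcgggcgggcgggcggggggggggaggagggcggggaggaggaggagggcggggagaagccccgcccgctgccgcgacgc
Eif4b, chr15:102073653-102073802, plus strand: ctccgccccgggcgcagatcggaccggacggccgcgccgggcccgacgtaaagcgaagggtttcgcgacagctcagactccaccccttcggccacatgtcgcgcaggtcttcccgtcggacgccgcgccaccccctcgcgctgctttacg
Eef1e1, chr13:38658999-38659148, minus strand: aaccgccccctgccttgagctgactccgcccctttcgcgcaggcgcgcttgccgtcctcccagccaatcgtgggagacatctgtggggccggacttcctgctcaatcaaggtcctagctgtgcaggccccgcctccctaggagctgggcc
Eef1a1, chr9:78481695-78481844, minus strand: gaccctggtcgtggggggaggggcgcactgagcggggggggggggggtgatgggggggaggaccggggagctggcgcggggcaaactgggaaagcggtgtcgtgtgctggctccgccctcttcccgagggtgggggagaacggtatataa

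The Eif4h window holds an E-box and the Eif2b4 window an ETS core just after the start, and the other 6 windows hold none of the 3 letter strings, so the chromosome 5 genes have no string in common here. Over the full windows of 300 bases, listed for 46 of the 59 measured members, CCGGAAG was found in 15 (32.6%), against 23.0% of the 6796 measured genes with a window and 9.12% of all 27025 genes with one. CACGTG was found in 10 (21.7%), against 11.4% and 7.24%, and AGATAA in 1 (2.17%), against 5.97% and 11.4%. The first window listed for a gene was used, and a match is only a match of letters. The 10 members with CACGTG had a median response of -0.12 in the knockout and -0.04 in wild type, and the 36 without it -0.27 in the knockout and -0.16 in wild type. For CCGGAAG the medians were -0.20 in the knockout and -0.14 in wild type in 15 members with it, and -0.26 in the knockout and -0.16 in wild type in 31 without it.

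A list of genes that act on or beside the translation factors was also measured. Of 47 such genes 46 were measured, and at 24 h against 0 h in the knockout 5 were at least 1.5-fold higher (8.4% of all genes) and 6 lower (13.9% of all genes), or 28 higher and 0 lower with TPM scaling. The median of all genes in the knockout was 0.83 with TPM scaling, itself past 1.5-fold. In wild type 3 were higher (4.6% of all genes) and 0 lower (6.64% of all genes), with the same counts under TPM scaling. Mknk1, a kinase that phosphorylates eIF4E, stood at 36.3 and 11.5 FPKM in the knockout at 24 h and 0 h and 18.9 and 10.6 FPKM in wild type, with log2 ratios of 1.57 in the knockout and 0.79 in wild type. Ppp1r15a (GADD34), which brings phosphatase to eIF2 and so reverses the action of the kinases, stood at 37.1 and 14.4 FPKM in the knockout and 24.3 and 14.04 FPKM in wild type. Both genes were highest in the knockout at 24 h. At 0 h their log2 ratios of knockout to wild type were 0.12 for Mknk1 and 0.03 for Ppp1r15a, or -0.60 and -0.70 with TPM scaling. The left-out kinase gene Eif2ak1, on chromosome 5, had log2 ratios of 1.25 in the knockout and 0.67 in wild type. That is opposite in sign to the 3 kinases among the members on the deposited scale, though not with TPM scaling in the knockout, where Eif2ak2 is at 0.36. In wild type with TPM scaling Eif2ak2 was still lower at 24 h, at 9.87 TPM against 10.1 TPM at 0 h. Eif2ak4 (10.97 against 10.87 TPM) and Eif2ak3 (3.21 against 2.91 TPM) were higher there. Ppp1r15b (0.72 in the knockout, 0.28 in wild type) and Pdcd4, an inhibitor of eIF4A (0.71 in the knockout, 0.19 in wild type), were the other 2 higher genes. The 6 lower ones were Cyfip1, an eIF4E-binding protein (-0.98 in the knockout, -0.55 in wild type), the diphthamide enzymes Dph1 (-0.77 in the knockout, -0.55 in wild type) and Dph2 (-0.59 in the knockout, -0.06 in wild type), and 3 mitochondrial factors. The 3 were Tsfm (-0.84 in the knockout, -0.19 in wild type), Tufm (-0.81 in the knockout, -0.41 in wild type) and Mtif2 (-0.64 in the knockout, -0.48 in wild type).

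Knockout against wild type, the related genes with a ratio past 1.5-fold were few. At 0 h the only one on the deposited scale was Rheb, the activator of mTOR, on chromosome 5, with 45.2 FPKM in the knockout and 27.8 FPKM in wild type. Of all genes 1.83% were higher and 2.31% lower there. Median-centred and upper-quartile scaling each gave 4 higher and 0 lower at 0 h, and TPM scaling 0 higher and 33 lower. With TPM scaling the median of all genes was -0.78 there, itself past 1.5-fold lower. With median-centred libraries the 4 were Rheb (0.72), Denr (0.62), Eif2ak1 (0.60) and Mtif3 (0.59), all on chromosome 5. At 24 h, on the deposited scale, Eif2ak1 (1.14), Mknk1 (0.90) and Ppp1r15a (0.59) were higher (3.51% of all genes). Tsfm (-0.65) and Mtrf1 (-0.61), which act in mitochondria, were lower (5.02% of all genes). The lower count of 2 was 1 with TPM or median-centred scaling and 0 with upper-quartile scaling. Mknk1 (0.79) and Tsfm (-0.65) were also the only related genes whose difference of responses passed 1.5-fold on the deposited scale. Of all genes 2.96% passed it higher and 2.8% lower. With TPM scaling 31 related genes were past 1.5-fold higher in the difference and 0 lower, beside a median of all genes of 0.72. With upper-quartile scaling 3 were higher and 1 lower. With TPM scaling the knockout responses of the 6 lower genes lay between -0.04 and 0.40, which is -0.87 to -0.43 relative to all genes, and Rheb at 0 h stood at -0.09, which is 0.68 above all genes.

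Ribosomal protein and synthetase genes were set beside the translation factors. At 24 h against 0 h, 82 measured ribosomal protein genes had a median log2 ratio of -0.04 in the knockout and 0.01 in wild type, above the median of all genes by 0.08 in the knockout and 0.12 in wild type. The translation factors stood at -0.18 in the knockout and -0.05 in wild type relative to that median. For 20 aminoacyl-tRNA synthetase genes the medians were -0.17 in the knockout and -0.15 in wild type, or -0.05 and -0.04 relative to all genes. In wild type they thus stood close to the translation factors. Between genotypes the order was different. Knockout against wild type, the ribosomal protein median was -0.23 at 24 h and -0.17 at 0 h. The synthetase median was -0.17 at 24 h and -0.14 at 0 h, and the translation factor median -0.20 at 24 h and -0.09 at 0 h. The knockout was below wild type at both times for 71 of 82 ribosomal protein genes and 15 of 20 synthetase genes, against 48.0% of all genes. With TPM scaling it was so for 72 of 82 and 17 of 20, against 55.5% of all genes. Of the translation factors, 44 of 59 (74.6%) were below wild type at both times with TPM scaling. No test of the difference between these groups was possible with 1 library per group.

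**Figure D4:**
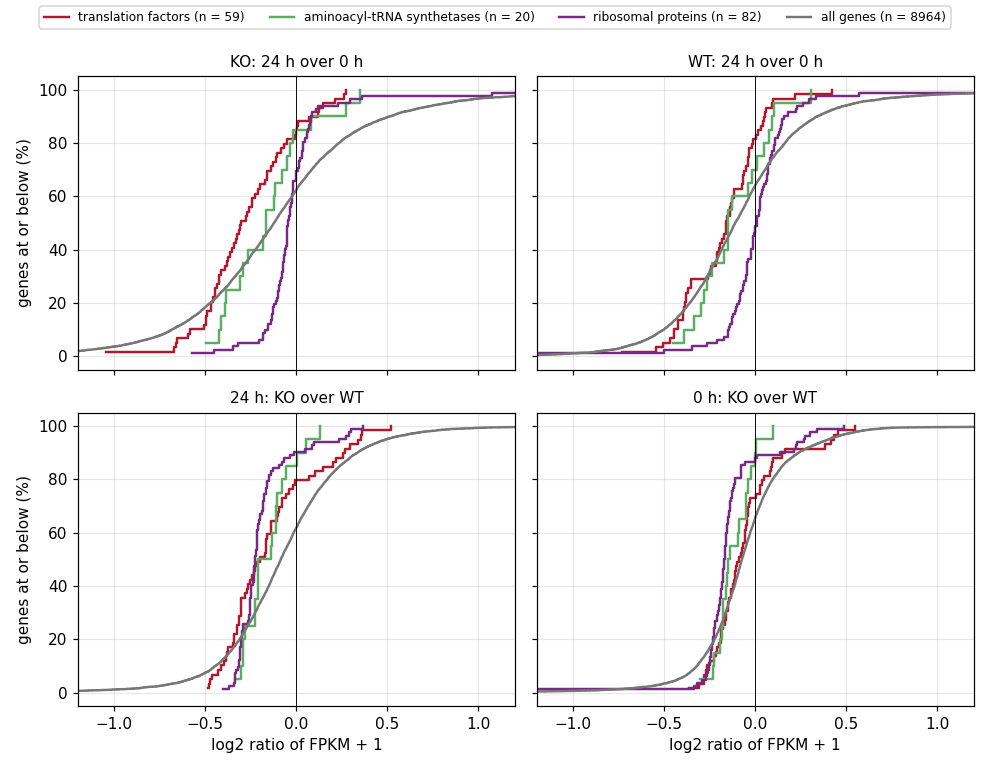
Cumulative share of genes (y, in percent) at or below a log2 ratio of FPKM + 1 (x) for the translation factors, the synthetases, the ribosomal proteins and all measured genes, on the deposited scale, in 4 comparisons. In the upper panels (24 h over 0 h) the red line lies left of the purple one, with medians of -0.30 and -0.04 in the knockout and -0.16 and 0.01 in wild type (with TPM scaling the median of all genes lies at 0.83 in the knockout and 0.11 in wild type).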

How the data were processed

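The authors deposited 1 table of FPKM values, 1 value per gene symbol and library, and the unit is named in a header line inside the table. Cufflinks 2.2.1, TopHat2 2.0.11, cutadapt and FastQC are listed, with the GRCm38 build, per the submitters' processing notes. Which annotation was used, how multi-mapped reads were counted and whether libraries were rescaled is not given in the sources used here. Columns were mapped to libraries by their descriptions, with genotype and time from the titles.

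Ratios were computed as log2(FPKM + 1) for genes averaging 1 FPKM or more, in 5 comparisons (24 h against 0 h per genotype, knockout against wild type per time, and the difference of responses). Past 2-fold or 1.5-fold was called higher or lower. Shares of all genes past these folds were computed on the deposited scale only. Depth was approximated from low values of genes with 1 annotated transcript of at least 3 kb, where 64.4% to 71.2% were whole fragments within 5%, against 17.0% to 21.6% at other depths. Counting margins (95%) use these depths and the longest coding transcript, and are approximate. All 64 members matched RefSeq symbols (GRCm38.p6).

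Named are the most abundant member of each role, members past 1.5-fold with at least 5 FPKM in the highest library, and paralogs. Others named were chosen after their values were seen. The members and lists were chosen with earlier results of these data known. Alternatives were pseudocounts of 0.1 and 5, no filter, an average of 5 FPKM or more, TPM, median-centred and upper-quartile scaling, small RNA hosts left out, and small and predicted loci left out of the background. Leaving out chromosome 5 was added after seeing the data. The code was tested on simulated data. Python 3.11.15, numpy, pandas, scipy and matplotlib were used.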

Additional observations from a re-analysis of the deposited data

Results flagged for a closer look

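Genes are given here where the sign of a contrast differed between genotypes or times by more than the counting margin of each value, and none of these differences was tested. The response of Eif5 was 0.07 in the knockout and -0.26 in wild type, a difference of 0.33. For Eif3d, an eIF3 subunit, the response was -0.11 in the knockout and 0.10 in wild type, a difference of -0.21. Knockout against wild type, Eef1e1 stood at -0.14 at 24 h and 0.10 at 0 h, a difference of -0.24. Eif5b stood at 0.07 at 24 h and -0.14 at 0 h, a difference of 0.21. The signs are those of the deposited scale.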

How the results depend on the processing

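Counts past 2-fold and medians relative to all genes were recomputed under 10 alternatives, and 139 of 150 values stayed within 1.5 times (counts) or within the typical counting margin (medians). Some of these could not move. Leaving loci out of the background alone cannot change a count of members, and median-centring cannot change a median relative to all genes. Leaving members out cannot raise a count of 0. With TPM scaling 13 members were 2-fold higher and 0 lower at 24 h in the knockout, 10 were 2-fold lower in the knockout at 0 h, 5 had a difference of responses of 1 or more, and the relative median was -0.08 instead of -0.18 for the knockout response and -0.10 instead of -0.01 for knockout against wild type at 0 h. The median of all genes was then 0.83 for the knockout response, -0.78 for knockout against wild type at 0 h and 0.72 for the difference. The single 2-fold lower gene of the knockout, Eif1a, passed the threshold no longer (0 genes) with a pseudocount of 5 FPKM (log2 ratio -0.97) and with median-centred (-0.93) or upper-quartile scaling (-0.94), against -1.05. With no filter the relative median was -0.27 for the knockout response and -0.14 for wild type, since genes at 0 then set the median of all genes at 0. TPM scaling turned the knockout ratios of Eef1e1 (0.41), Eif1a (0.02), Eif1ax (0.41), Eif2ak2 (0.36) and Eif4b (0.43). Leaving out chromosome 5 moved none of the counts and medians past these limits. No paired analysis was possible because each group has 1 library, and no library could be left out. Counting error limits Eif4ebp3 most, with a margin of up to 0.49 on a ratio.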

Other observations

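Ratios of levels within a library do not depend on scaling. Eif4a1 over Eif4a2 was 7.62 and 7.5 in the knockout at 24 h and 0 h and 8.33 and 6.14 in wild type. Eif1ax over Eif1a was 3.13 and 2.39 in the knockout and 2.95 and 2.28 in wild type, so that it was higher at 24 h in both genotypes. Eif4ebp1 over Eif4e stayed between 3.57 and 4.20, and Eef1a1 over Eef2 between 5.29 and 5.74. Eif4g1 over Eif4g3 was 17.5 and 19.5 in the knockout and 23.5 and 26.4 in wild type, lower in the knockout at each time.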
